A study of Mus musculus with 10 samples.

Results

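The glucocorticoid response was followed through 10 of the 24972 genes listed for each library in mouse cortex. They were chosen by name: the glucocorticoid receptor Nr3c1 and 9 genes known as its targets in brain, Fkbp5, Sgk1, Tsc22d3, Zbtb16, Hif3a, Sult1a1, Mt1, Mt2 and Plin4. All 10 passed the filter on low counts, which left 14378 genes. The 10 libraries came from cortex RNA of male C57BL/6 mice, 2.5 months old, 5 labelled Atad3 nKO and 5 littermates labelled Atad3 control, all perfused with cold saline before dissection and given no other treatment that the labels name. Atad3a encodes a protein of the mitochondrial inner membrane; the letters nKO are not spelled out in the labels, nor is the driver of the deletion or the cells it reaches, and Atad3a RNA was still present in every nKO library.

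Glucocorticoids are steroid hormones that the adrenal gland releases in a daily rhythm and under stress. They enter cells and bind the receptor, which leaves its chaperone complex, moves to the nucleus and binds DNA as a dimer or monomer. In brain, the genes it raises are expressed in neurons, glia and vessels, and several of them, Fkbp5 and Tsc22d3 among them, act back on the receptor or on inflammation. Metallothioneins such as Mt1 and Mt2 bind zinc and copper, and their genes also respond to metals through the factor MTF1.

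None of the 10 genes differed between nKO and control cortex by the test used. Most of the targets varied widely over the 10 libraries, while Nr3c1 and Sult1a1 varied about as much as other genes of their level. Fkbp5, Plin4, Tsc22d3, Sgk1 and Hif3a were high together in nKO 1, nKO 2 and control 2, and low together in nKO 5 and control 5 with the exception of Sgk1 in control 5. Nr3c1 tended to the opposite side, but in control 2 it was high as well, at 313 CPM. Of its relations to the genes just named, only that with Hif3a passed. Mt1 and Mt2 moved together as a pair in CPM, with their highest value in control 1. In TPM the pair did not pass, and Mt2 was highest in control 2.

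The depth was 14812639 to 24161361 estimated counts per library. Atad3a stood at 23.7 ± 1.87 CPM (counts scaled to a common library total, by TMM; SD, n = 5) in control and 11.5 ± 1.97 in nKO libraries, without overlap, so this gene goes with the genotype labels (log2 fold change -1.04, edgeR quasi-likelihood adjusted p = 0.00634). It and Fam155a were the 2 genes called at an adjusted p under 0.05, which is 0.0139% of the genes tested. The main axis of variation of the libraries (33.6% of the variance) ran from control 1 to nKO 4, and the fold changes of the 10 genes without both are given after those of the full set. The labels carry running numbers that come first for the controls and then for the nKO animals, so any effect of processing in that sequence and the genotype cannot be told apart.

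The promoter sequences are shown because 2 of the results below turn on where a transcript of Sgk1 starts and on the pair of metallothionein genes. RefSeq windows on GRCm38.p6 were at hand for 8 of the 10 genes, with 15 start sites, each reaching from 250 bases before to 50 bases after the start. The full glucocorticoid receptor site was searched as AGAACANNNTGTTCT, the hexamer it repeats as AGAACA, and a relaxed full site as GNACANNNTGTNC, on both strands; every full site also holds the hexamer and the relaxed site. Of 32851 windows in the table, 0.0091% held the full site, 0.475% the relaxed site and 19.0% the hexamer. One window of these genes held the full site, the one before the Sgk1 start at position 21993890 of chromosome 10. The sequence before that start is shown 5′ to 3′ on the plus strand, with each hexamer, on either strand, in capitals.
Sgk1, chr10:21993640-21993889: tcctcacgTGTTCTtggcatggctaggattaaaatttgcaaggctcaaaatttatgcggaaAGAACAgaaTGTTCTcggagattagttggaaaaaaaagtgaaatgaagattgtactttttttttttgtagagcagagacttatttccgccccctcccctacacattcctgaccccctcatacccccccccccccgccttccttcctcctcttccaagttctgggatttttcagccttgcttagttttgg
The full site lies at 21993701 to 21993715, which is 951 bases before the start at 21994666 of the Sgk1 transcript that holds most of the gene's RNA here. The window of that start held none of the receptor's sites, and other starts were not searched that far upstream. No exon of Sgk1 in GENCODE vM21 covers the printed stretch. The hexamer alone was found at 2 other Sgk1 starts, at 1 of 3 Tsc22d3 starts and at the Sult1a1 start, which held 2. The windows of Fkbp5, Plin4 and Hif3a held none of the receptor's sites, which says only that these letters are not in those windows. A match is a description of letters and not of binding.

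Metal response element cores, the sites of MTF1, were searched as TGCACNC and TGCGCNC on both strands. The Mt2 window held 4 and the Mt1 window 3, beside 1.97% of all windows with at least 3 and 0.518% with at least 4. The 250 bases before the Mt2 start hold 3 of its 4 cores, in capitals, and the last lies 5 bases into the transcript.
Mt2, chr8:94172368-94172617: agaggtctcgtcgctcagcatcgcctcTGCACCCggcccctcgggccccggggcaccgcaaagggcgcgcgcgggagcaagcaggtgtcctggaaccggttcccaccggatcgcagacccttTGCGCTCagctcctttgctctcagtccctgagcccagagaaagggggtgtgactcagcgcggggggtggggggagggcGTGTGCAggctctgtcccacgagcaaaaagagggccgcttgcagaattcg
The 3 cores of Mt1 were TGCACAC 23 bases before the start at position 94179089 and TGCACTC and TGCGCTC in its first 50 bases, and its window also held a relaxed receptor site, GGACATGATGTTC. Mt2 and Mt1 lie side by side on the same strand of chromosome 8, from 94172618 to 94173567 and from 94178883 to 94180327, with 5315 bases between them. In the other windows, single cores were found at Hif3a and at the Sgk1 start at 21994666.

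Levels of different genes were compared in TPM, which is per length. Mt1 was the most abundant at 509 ± 69.8 TPM (SD over all 10 libraries), above 98.1% of the genes tested. Mt2 followed at 164 ± 31.2, Tsc22d3 at 148 ± 25.2, Nr3c1 at 124 ± 10.2 and Sgk1 at 90.0 ± 27.9. Zbtb16 stood at 32.8 ± 9.04, Fkbp5 at 25.2 ± 4.49 and Sult1a1 at 24.2 ± 3.72. Plin4 at 2.91 ± 1.56 and Hif3a at 1.27 ± 0.506 closed the order. At 3 steps this order separated neighbours whose ranges did not overlap: Mt1 from Mt2, Sgk1 from Zbtb16, and Sult1a1 from Plin4. Plin4 was above Hif3a in 10 of 10 libraries although their ranges overlapped, and the remaining neighbours did not differ beyond their spread.

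The spread between animals was uneven among the genes. Plin4 had a coefficient of variation of 57.6% in CPM, Hif3a of 39.5%, Mt1 of 33.0%, Mt2 of 32.6%, Sgk1 of 28.3% and Zbtb16 of 27.8%. Beside genes within 2-fold of the same mean CPM, these values lay at percentiles 98.4, 92.3, 97.5, 95.1, 96.9 and 96.7. Fkbp5 at 18.5% and Tsc22d3 at 17.8% lay at percentiles 83.6 and 88.0. Nr3c1 at 9.36% and Sult1a1 at 14.9% lay close to the middle, at percentiles 50.1 and 50.7. On the TPM scale the spread of Mt1 was 13.7% and that of Mt2 19.0%. The receptor was thus among the steadier of the 10 genes and most of its targets were among the more variable genes of their level.

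Nr3c1, the receptor itself, lies on chromosome 18 from 39410545 to 39519421 in the RefSeq record on GRCm38. It was at 269, 313, 345, 292 and 309 CPM in control 1 to 5, and at 270, 262, 267, 307 and 319 CPM in nKO 1 to 5. The groups overlapped, with the highest value in control 3 and the lowest in nKO 2. The log2 fold change of nKO against control was -0.10 (SE 0.08, edgeR quasi-likelihood adjusted p = 0.860), and its 95% interval allowed from 0.825 to 1.06 times the control level.

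Fkbp5, on chromosome 17 from 28398753 to 28486149, encodes a co-chaperone that lowers the receptor's affinity for its hormone. It was at 40.6, 40.9, 28.9, 33.4 and 26.3 CPM in control 1 to 5, and at 44.5, 43.4, 32.6, 30.6 and 30.8 CPM in nKO 1 to 5. Of each genotype, 2 libraries lay above 40 CPM and the other 6 at or below 33.4. The groups overlapped between 30.6 and 40.9 CPM, and the log2 fold change was 0.10 (SE 0.15, edgeR quasi-likelihood adjusted p = 0.932).

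Tsc22d3, on chromosome X from 140539528 to 140600522, encodes GILZ, a leucine zipper protein that restrains inflammatory signalling. It was at 104, 115, 93.2, 107 and 82.0 CPM in control 1 to 5, and at 132, 116, 74.8, 88.7 and 88.5 CPM in nKO 1 to 5. The highest and the lowest of the 10 values were both in nKO libraries. Its log2 fold change was -0.0029 (SE 0.15, edgeR quasi-likelihood adjusted p = 0.999), a value near 0 whose sign turned in 9 of 20 alternatives.

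Sgk1, on chromosome 10 from 21882184 to 21999903, encodes a kinase that regulates ion channels and transporters. It was at 71.8, 97.8, 64.6, 87.5 and 81.3 CPM in control 1 to 5, and at 131, 120, 65.6, 63.8 and 68.3 CPM in nKO 1 to 5. The nKO group held the 2 highest libraries, nKO 1 and nKO 2, while the other 3, at 63.8 to 68.3 CPM, were near or below the lowest control. In nKO against control the log2 fold change was 0.16 (SE 0.22, edgeR quasi-likelihood adjusted p = 0.921) and came to -0.020 without nKO 1.

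Zbtb16, on chromosome 9 from 48651797 to 48836225, encodes a zinc finger repressor of transcription. It was at 94.2, 68.3, 42.2, 107 and 73.6 CPM in control 1 to 5, and at 131, 98.9, 95.4, 73.7 and 94.6 CPM in nKO 1 to 5. All 5 nKO values were above the control median, the lowest of them by a small margin, yet control 1 and control 4 lay within the nKO range. Its log2 fold change of 0.36 (SE 0.22) did not pass the test (edgeR quasi-likelihood adjusted p = 0.837). In TPM the means were 27.8 ± 8.42 and 37.8 ± 7.17 (SD, n = 5 each), with an exact two-sided permutation p of 0.0794, not adjusted for the 10 genes. Zbtb16 fell with depth (r = -0.84 with log2 total count over 10 libraries, rho = -0.72, permutation p = 0.00675, adjusted over 20 relations p = 0.0450). Without control 3, the deepest library, and nKO 5, the shallowest, r was -0.69; the part of depth in the difference was not tested.

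Hif3a, on chromosome 7 from 17030993 to 17062427, encodes a member of the hypoxia-inducible factor family that can oppose the others. It was at 3.62, 4.29, 0.984, 2.40 and 1.80 CPM in control 1 to 5, and at 4.70, 4.08, 3.62, 3.16 and 2.05 CPM in nKO 1 to 5. In nKO, 4 of 5 libraries were above the control median, and the groups overlapped. Its log2 fold change was 0.45 (SE 0.35, edgeR quasi-likelihood adjusted p = 0.860), at 24.1 to 77.5 estimated counts per library. It came to 0.23 without control 3 and to 0.70 without control 2.

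Plin4, on chromosome 17 from 56100587 to 56109948, encodes a perilipin, a coat protein of lipid droplets. It was at 10.3, 9.16, 3.24, 4.51 and 1.75 CPM in control 1 to 5, and at 10.9, 6.98, 3.68, 4.39 and 2.73 CPM in nKO 1 to 5. The 4 libraries highest in Fkbp5 were also the 4 highest here, and the highest was 6.21 times the lowest. The group means were almost equal, with a log2 fold change of -0.0015 (SE 0.49, edgeR quasi-likelihood adjusted p = 0.999), whose sign turned in 9 of 20 alternatives. The 95% interval, from 0.471 to 2.12 times control, shows how little 5 animals a group say about a gene that varies this much.

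Sult1a1, on chromosome 7 from 126672865 to 126690443, encodes a sulfotransferase of phenols and catecholamines. It was at 10.6, 12.04, 11.8, 9.37 and 8.44 CPM in control 1 to 5, and at 11.5, 11.1, 12.2, 14.2 and 9.71 CPM in nKO 1 to 5. The groups overlapped, with nKO 4 highest and control 5 lowest. Its log2 fold change was 0.17 (SE 0.13, edgeR quasi-likelihood adjusted p = 0.860). Of the runs of 31 bases in its transcripts, 9.35% also occur in another gene, nearly all in Gm6939, so the assignment of part of its reads is uncertain; in the other 9 genes the share was at most 1.75%.

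Mt1 was at 90.8, 48.7, 30.9, 49.5 and 40.5 CPM in control 1 to 5, and at 50.8, 53.5, 49.0, 36.1 and 42.7 CPM in nKO 1 to 5. Control 1 stood apart and the other 9 libraries lay between 30.9 and 53.5. The log2 fold change was -0.16 (SE 0.24, edgeR quasi-likelihood adjusted p = 0.929), and it was 0.13 without control 1. Mt2 was at 31.0, 20.7, 10.7, 17.0 and 17.0 CPM in control 1 to 5, and at 18.7, 21.2, 15.7, 10.4 and 16.7 CPM in nKO 1 to 5. Control 1 was again the highest. The log2 fold change of Mt2 was -0.22 (SE 0.26, edgeR quasi-likelihood adjusted p = 0.902), and 0.018 without control 1. In GENCODE vM21, 73.5% of the exonic bases of Mt2 overlap Gm45774 on the opposite strand, a gene not listed in these tables, and the sources used here do not say whether the counting used strand.

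The short metallothionein transcripts went with a technical measure. The effective length of Mt1, the number of positions at which its transcript could yield a fragment, ranged from 185 bases in nKO 4 to 350 in control 1, the same 2 libraries that end the main axis of variation. Mt1 CPM rose with this length (r = 0.88 over 10 libraries on log2 scales, rho = 0.87, permutation p = 0.00359, adjusted over 10 genes p = 0.0179), and r was 0.73 without those 2 libraries. Mt2 gave r = 0.87 (rho = 0.73, permutation p = 0.00183, adjusted p = 0.0179) and 0.57 without them. With the main axis, r was -0.93 for Mt1 (rho = -0.82, permutation p = 0.0009) and -0.88 for Mt2 (rho = -0.61, permutation p = 0.00147), each with an adjusted p of 0.0147 over 20 relations, and -0.78 and -0.62 without the 2 libraries. On the TPM scale, which divides by the effective length, Mt1 was at 502 ± 102 in control and 516 ± 20.1 in nKO libraries (SD, n = 5 each), a log2 difference of 0.06 (exact two-sided permutation p = 0.659). The sign of the Mt1 difference thus turned between scales, and neither value passed its test.

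**Figure D1:**
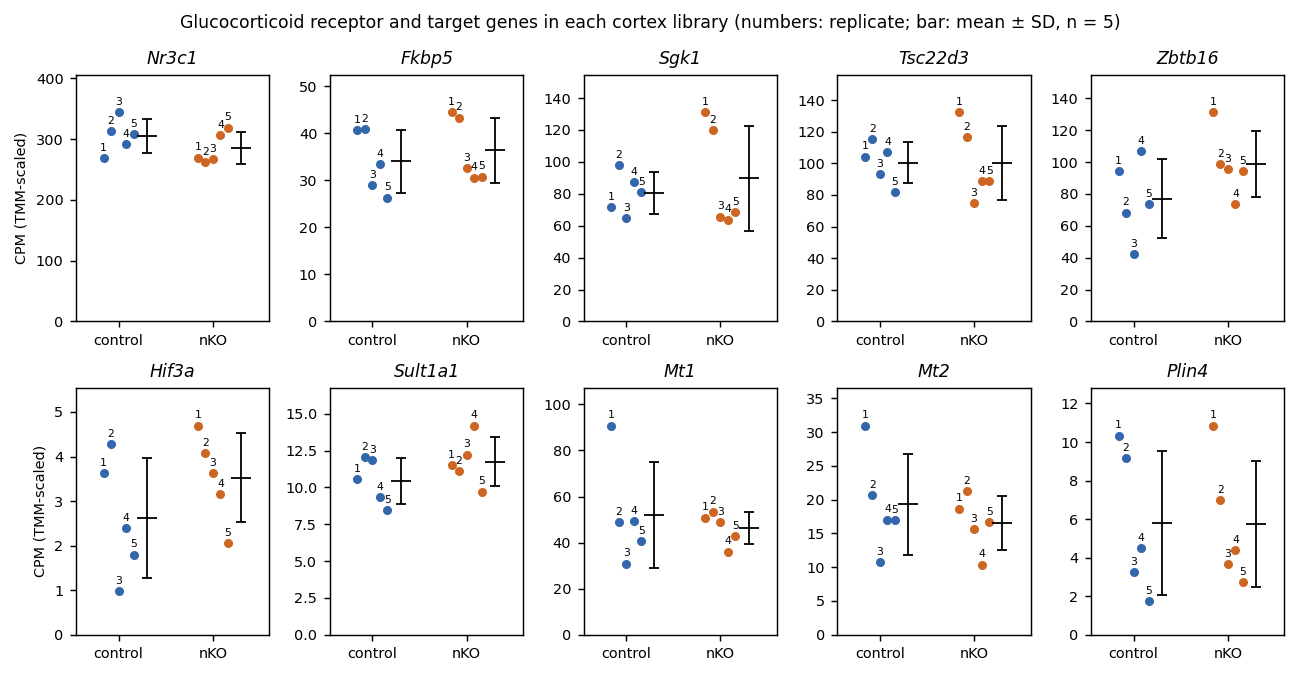
Level of each of the 10 genes in CPM (vertical axis, from 0) in the 5 control (blue) and 5 nKO (orange) libraries, each point 1 library with its replicate number and each bar the mean ± SD. The groups overlap for all 10 genes, and replicates 1 and 2 of both groups are the 4 highest for Fkbp5 and Plin4, with Mt1 at 90.8 CPM in control 1 far above the rest.

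Across the 10 genes, 5 were higher and 5 lower in nKO than in control libraries, with a median log2 fold change of 0.05 beside -0.0078 over all genes tested. By edgeR's quasi-likelihood test 0 of 10 passed an adjusted p under 0.05, and 0 of 10 had an unadjusted p under 0.05, where 5.65% of all genes did. For 0 of 10 did the groups fall apart without overlap, beside 1.38% of all genes. DESeq2 and limma-voom also called 0 of the 10. Without control 1 and nKO 4, the log2 fold changes were -0.18 for Nr3c1, 0.22 for Fkbp5, 0.21 for Sgk1, 0.52 for Zbtb16, 0.64 for Hif3a and 0.088 for Sult1a1. They were 0.043 for Tsc22d3, 0.20 for Mt1, 0.14 for Mt2 and 0.39 for Plin4, 4 genes whose sign turned, and again none passed (edgeR, smallest adjusted p = 0.529). The narrowest 95% intervals, of Nr3c1, Sult1a1, Tsc22d3 and Fkbp5, lay within 1.37 times control, and those of Plin4 and Hif3a reached 2.12 and 2.30 times, so differences within these limits were not detectable with 5 animals a group. In tissue RNA, fewer cells of a type and less RNA per cell cannot be told apart. Where nothing says more of the animals than that they are littermates, the p-values measure the spread between these 10 samples.

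**Figure D2:**
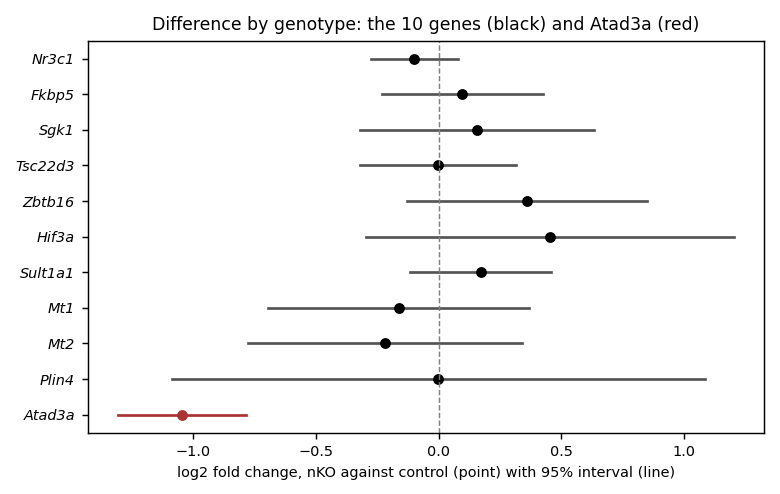
Log2 fold change of nKO against control (horizontal axis) with its 95% interval from edgeR for the 10 genes in black and Atad3a in red. All 10 black intervals cross 0, from Nr3c1 at -0.10 with the narrowest to Plin4 with the widest, while Atad3a lies at -1.04.

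The 10 genes were then compared with each other over the 10 libraries. Of 45 pairs, 9 passed a permutation test of Pearson's r on log2 CPM at an adjusted p under 0.05, and the weakest of them had an absolute r of 0.73. As background, 7.94% of all pairs of tested genes reach that r, so many genes of this tissue vary together. Among the 9 targets, 32 of 36 pairs had a positive r, with a median of 0.54. The share of positive r over all pairs of tested genes was not computed, so this count is a description only. Counts of called pairs varied when a library was left out: 9 pairs became 1 without nKO 4, to 2 without control 4, nKO 1 or nKO 2, to 3 without control 2 or nKO 5 and to 4 without control 5, and stood at 6 to 11 without each of the other 3. With 9 libraries a pair could lose its call while r stayed large: without nKO 4, Fkbp5 and Hif3a had r = 0.85 at an adjusted permutation p of 0.0573. Other values of r moved more, such as that of Nr3c1 and Hif3a, which ranged from -0.91 to -0.61. At least 42 of 45 pairs kept their sign in each of those 10 runs.

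Fkbp5 and Plin4 were the closest pair (r = 0.94, rho = 0.89, permutation p = 0.0002, adjusted p = 0.0090). Without nKO 1 and nKO 2, the libraries farthest from the median of Fkbp5, r was 0.96, and it was 0.92 to 0.97 with each library left out in turn. The 4 high libraries for both genes were control 1, control 2, nKO 1 and nKO 2. Fkbp5 and Tsc22d3, the pair of genes that act back on the receptor and on inflammation, also passed (r = 0.83, rho = 0.82, permutation p = 0.00386, adjusted p = 0.0379), with r = 0.70 without nKO 1 and nKO 2.

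Sgk1 and Tsc22d3 gave r = 0.83 (rho = 0.76, permutation p = 0.00283, adjusted p = 0.0379) and 0.65 without nKO 1 and nKO 2. Tsc22d3 and Plin4 gave r = 0.81 (rho = 0.82, permutation p = 0.00599, adjusted p = 0.0385) and 0.84 without nKO 1 and nKO 3, and on log2(TPM + 0.1) came to 0.75 and did not pass (adjusted permutation p = 0.0655). Fkbp5 and Hif3a gave r = 0.80 (rho = 0.92, permutation p = 0.0047, adjusted p = 0.0379) and 0.73 without nKO 1 and nKO 2. These genes code for a co-chaperone, a zipper protein, a kinase, a transcription factor and a lipid droplet coat. Fkbp5 and Sgk1 did not pass (r = 0.73, rho = 0.77, permutation p = 0.0174, adjusted p = 0.0712), and r fell to 0.41 without nKO 1 and nKO 2, so that relation rests on those libraries.

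Because Fkbp5 left a gap between 33.4 and 40.6 CPM, the relations were computed again within the 6 libraries below it. There, r with Fkbp5 was 0.84 for Plin4 (exact permutation p = 0.0431, adjusted over 9 genes p = 0.388), 0.57 for Hif3a, 0.29 for Tsc22d3 and -0.02 for Sgk1. None passed with 6 libraries, over which Fkbp5 covers only part of its range, so these values do not show whether a relation is present within them. Both the 4 libraries above the gap and the 6 below it hold both genotypes.

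The libraries themselves can be ordered by how many of the 9 targets had one of their 4 highest values there. The count was 8 in nKO 1 and in nKO 2, 7 in control 2, 5 in control 1 and 4 in control 4. It was 2 in nKO 3, 1 in control 3 and in nKO 4, and 0 in control 5 and in nKO 5. The pattern crosses the genotypes, with high and low libraries in each. Centring every gene on its genotype mean left 44 of 45 signs as they were and gave 12 called pairs, 8 of them among the 9.

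**Figure D3:**
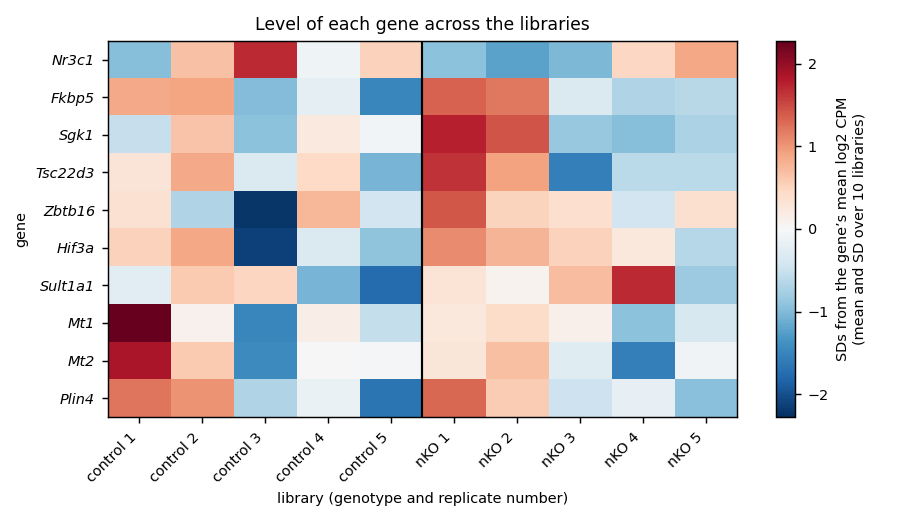
Level of each gene (rows) in each library (columns, control left and nKO right of the line), as the distance from the gene's mean log2 CPM in SDs over the 10 libraries. Red marks high and blue low: nKO 1 and nKO 2 are red in all or nearly all of the 9 target rows while Nr3c1 is blue there, and control 5 is blue or pale in all targets.

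Nr3c1 had a negative r to 9 of 9 targets, from -0.79 to -0.04. The share of all tested genes with a negative r to Nr3c1 was not computed. The r of -0.04, with Sult1a1, came to 0.14 after centring on genotype. Of the 9 relations, 3 passed: with Zbtb16 (r = -0.79, rho = -0.67, permutation p = 0.00506, adjusted p = 0.0379), with Hif3a (r = -0.77, rho = -0.59, permutation p = 0.00782, adjusted p = 0.0440) and with Mt1 (r = -0.73, rho = -0.79, permutation p = 0.00961, adjusted p = 0.0480). Without control 3 and nKO 2, the highest and the lowest Nr3c1 values, they were -0.65, -0.56 and -0.64. On log2(TPM + 0.1) the first and second came to -0.65 and -0.66, each with an adjusted permutation p of 0.125, so those calls depend on the scale, while Mt1 gave -0.79 (adjusted permutation p = 0.0487). Nr3c1 with Fkbp5 did not pass (r = -0.66, rho = -0.58, permutation p = 0.0426, adjusted p = 0.120). Nr3c1 also leaned along the main axis of variation (r = 0.73, rho = 0.79, permutation p = 0.0119, adjusted p = 0.0593), and at r = 0.93 without control 1 and nKO 4. Neuron markers moved with the same genes: the mean log2 CPM of the excitatory neuron list had r = -0.85 with Nr3c1 (rho = -0.83, permutation p = 0.00075, adjusted over 100 relations p = 0.0750), 0.83 with Zbtb16 and 0.81 with Mt1, both with an adjusted permutation p of 0.0938. The inhibitory neuron list had r = -0.77 with Nr3c1, 0.79 with Zbtb16 and 0.87 with Mt1. Without the 2 libraries farthest from each list's median, the excitatory and inhibitory values came to 0.40 and 0.54 for Mt1. They were -0.75 and -0.58 for Nr3c1 and 0.75 and 0.77 for Zbtb16. Oligodendrocyte precursor markers had r = -0.78 with Nr3c1 and 0.85 with Hif3a. None of these passed, and the part of that axis and of cell composition in the relations of Nr3c1 was not tested.

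Mt1 and Mt2 were the second closest pair (r = 0.92, rho = 0.84, permutation p = 0.0004, adjusted p = 0.0090). Without control 1 and control 3, r was 0.82, and on log2(TPM + 0.1) it was 0.75 and did not pass (adjusted permutation p = 0.0655). Their relation to Fkbp5 was weaker, at r = 0.66 for Mt1 and 0.67 for Mt2, with adjusted permutation p-values of 0.0927 and 0.108. Sult1a1 stood apart from the others, with r from -0.38 with Mt2 to 0.40 with Plin4 and no called pair. Zbtb16 and Hif3a reached r = 0.69 (rho = 0.45, permutation p = 0.0293, adjusted p = 0.101), which came to -0.04 without control 3 and nKO 1.

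**Figure D4:**
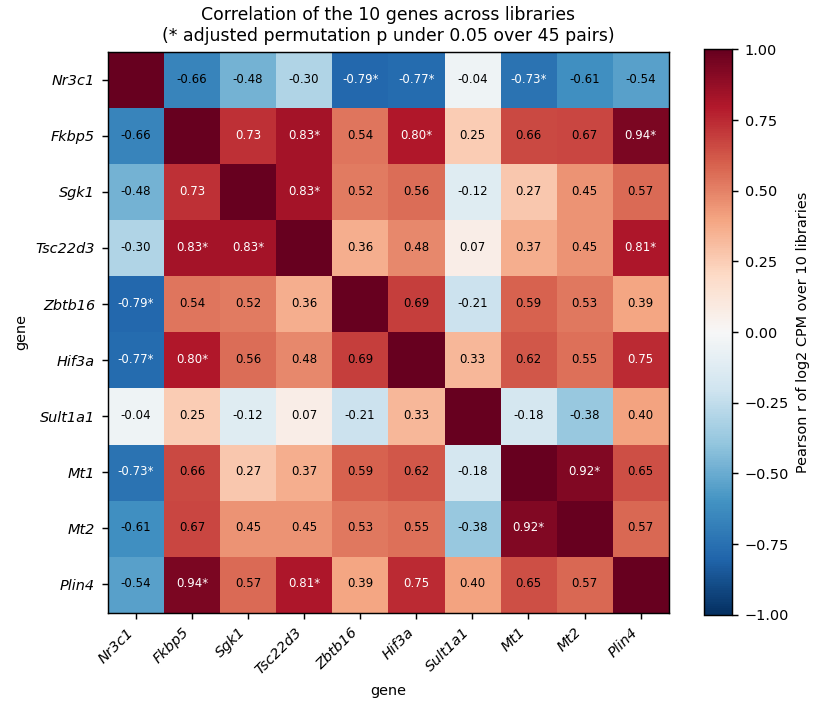
Pearson's r of log2 CPM over the 10 libraries for each pair of the 10 genes, red positive and blue negative, with a star where the permutation p adjusted over 45 pairs was under 0.05. The row of Nr3c1 is blue, but pale at Tsc22d3 (-0.30) and nearly white at Sult1a1 (-0.04). The block of Fkbp5, Tsc22d3, Plin4 and Hif3a is red with Fkbp5 and Plin4 at 0.94, and the row of Sult1a1 is pale.

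**Figure D5:**
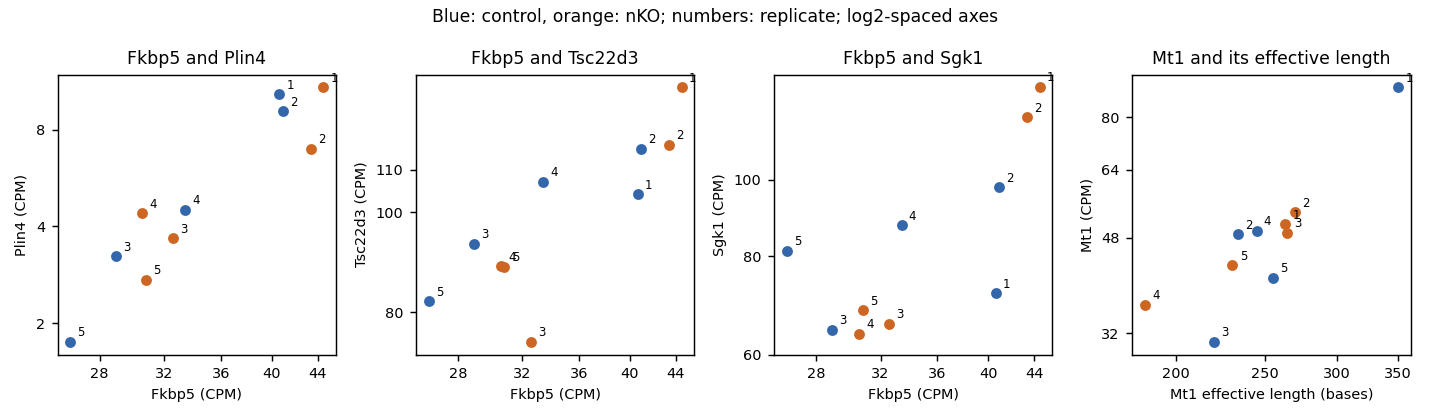
The first 3 panels plot Plin4, Tsc22d3 and Sgk1 against Fkbp5, all in CPM on log2-spaced axes, and the last plots Mt1 in CPM against its effective length in bases; each point is 1 library, blue for control and orange for nKO, with its replicate number. The 4 libraries above 40 CPM of Fkbp5 are 2 of each genotype, and control 1 is far to the upper right in the Mt1 panel at 350 bases and 90.8 CPM.

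Start sites divided the RNA of Sgk1 and Tsc22d3. Salmon listed 23 RefSeq transcripts of the 10 genes, 2 of them at 0 in every library. Of the 21 tested, 0 passed an exact permutation test on log2(TPM + 0.1) between genotypes with an adjusted p under 0.05. The smallest p this permutation test can give is 0.00794, so after adjustment over 21 transcripts a single one could not pass alone. The count of 0 thus does not show that no transcript differs. One had an unadjusted p under 0.05, Nr3c1 transcript NM_001361211 (log2 difference -1.07, exact permutation p = 0.0159, adjusted p = 0.333); 5 transcripts of Nr3c1 that share most of their sequence divided its reads, and their split varied widely between libraries.

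Sgk1 transcript NM_011361, which starts at 21994666, held 74.1% of the gene's TPM, and NM_001161845, which starts at 21882184, held 22.6%. NM_011361 was at 55.6, 84.5, 44.3, 64.8 and 58.5 TPM in control 1 to 5 and at 111, 106, 49.9, 42.4 and 49.3 TPM in nKO 1 to 5. NM_001161845 was at 13.0, 18.2, 19.9, 23.3 and 22.7 TPM in control and at 26.8, 20.3, 17.4, 23.1 and 18.6 TPM in nKO libraries. The high Sgk1 levels of nKO 2 and control 2 were thus in NM_011361. With Fkbp5, r was 0.83 for NM_011361 (rho = 0.76, permutation p = 0.00425, adjusted over 14 transcripts p = 0.0297; 0.58 without nKO 1 and nKO 2). It was 0.05 for NM_001161845 (rho = 0.09, permutation p = 0.895). The difference between these r was not tested.

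The transcript that starts next to the full site, NM_001161850, was scarce, at 1.88 TPM on average and 2.09% of the gene. It was highest in nKO 2 and nKO 1, at 4.91 and 3.01 TPM, and listed at 0 in control 3. Its r with Fkbp5 was 0.55 (rho = 0.59, permutation p = 0.0888, adjusted p = 0.207).

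Of Tsc22d3, NR_122039 held 77.2%, NM_010286 held 19.5% and NM_001077364, which starts farthest upstream, 3.29%. NR_122039 carries RefSeq's prefix for non-coding records. It and NM_010286 start at 140542668 and 140543187 and share their other end at 140539528, and how well their reads were told apart was not tested. NM_010286 was at 34.8, 38.8, 21.9, 29.0 and 23.7 TPM in control 1 to 5 and at 43.5, 39.5, 16.7, 18.5 and 22.2 TPM in nKO 1 to 5. The same 4 libraries as for Fkbp5 were the highest. With Fkbp5, r was 0.79 for NM_010286 (rho = 0.77, permutation p = 0.00909, adjusted p = 0.0424), 0.71 for NR_122039 (rho = 0.68, permutation p = 0.0231, adjusted p = 0.0751) and 0.12 for NM_001077364 (rho = 0.25, permutation p = 0.747). The first of these was 0.60 without nKO 1 and nKO 2. Zbtb16 was divided between NM_001364543 with 86.0% and NM_001033324 with 14.0%, and Hif3a came from NM_001162950 alone, with NM_016868 listed at 0.

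The rest of the pathway was read from lists of genes that are not among the 10. Of 32 other glucocorticoid targets known from brain, 30 were tested: 20 were higher and 10 lower in nKO, 0 passed the adjusted test and 2 had an unadjusted p under 0.05, with a median log2 fold change of 0.07. Over all genes tested, 6866 were higher and 7512 lower and 5.65% had an unadjusted p under 0.05. Those with the smallest p were Bcl6, a transcriptional repressor, at 17.6 ± 4.09 and 22.6 ± 1.39 CPM (log2 fold change 0.36, edgeR adjusted p = 0.820), and Mertk, a receptor for the uptake of dead cells, at 53.4 ± 6.82 and 63.7 ± 7.15 CPM (0.25, edgeR adjusted p = 0.820; SD, n = 5 each). Xdh and Ctgf followed with log2 fold changes of 0.32 and 0.36. None of these is a call.

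Their relation to Fkbp5 across libraries, in contrast, was mostly positive. Of the 30, 25 had a positive r with a median of 0.58, beside 7638 of 14377 and a median of 0.04 over all genes tested. The list was chosen with earlier results of these data known, so its counts are a description and not a test. Of the 30, 10 had an r of at least 0.7, a limit chosen after the values were seen, beside 1.43% of all genes. As single genes none is called: over 14377 genes 0 had an adjusted p under 0.05, which is 0%, while 951 of them and 13 of the 30 had an unadjusted permutation p under 0.05. The median of the list was 0.55 to 0.65 with each library left out in turn, 0.59 without control 1 and nKO 4 and 0.59 after centring on genotype. Mfsd2a, a lipid transporter of the blood-brain barrier, had r = 0.90, Nfkbia, the inhibitor of NF-kB, 0.89, and Sdc4, a heparan sulfate proteoglycan, 0.82. Not all went this way: Mgst1, a glutathione transferase, had r = -0.70. Marker lists of oligodendrocyte precursors, oligodendrocytes and excitatory neurons also leaned positive, with median r of 0.47, 0.37 and 0.34 with Fkbp5. Those of choroid plexus and meninges and of blood cells leaned negative, at -0.54 and -0.27, and the remaining lists lay between -0.02 and 0.11. The mean log2 CPM of the choroid plexus and meninges list had r = -0.57 with Fkbp5 and -0.71 with Plin4 (adjusted permutation p = 0.362 and 0.163). Without the 2 libraries farthest from that list's median, they were -0.21 and -0.35. The part of these cell types in the pattern was not tested.

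Among the receptor's chaperones and coregulators, 15 of 15 genes were tested, 11 were higher and 4 lower, and 0 were called. Nrip1, a corepressor, had a log2 fold change of 0.16 (edgeR adjusted p = 0.820), Ncoa1 of 0.14, Crtc2 of 0.42 and Fkbp4, the co-chaperone that opposes Fkbp5, of -0.13. The median r of this list with Fkbp5 was 0.41. Of genes for steroid supply, the mineralocorticoid receptor and stress peptides, 10 of 14 were tested, 4 were higher and 6 lower, and 0 were called. Hsd11b1, which regenerates active glucocorticoid, was at 24.9 ± 3.67 CPM in control and 21.5 ± 2.40 in nKO libraries (SD, n = 5 each; log2 fold change -0.22, edgeR adjusted p = 0.820). Crh, the peptide that starts the stress axis, had a log2 fold change of 0.21 and Akr1c14, a steroid reductase, of -0.30.

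Genes around the single targets gave no call either. Of 8 tested metal genes, 6 were higher and 2 lower; Mtf1 itself was at 30.3 ± 3.35 and 35.9 ± 4.18 CPM (SD, n = 5 each; log2 fold change 0.24, edgeR adjusted p = 0.820), and Mt3, the brain metallothionein, had a log2 fold change of -0.20. Of 12 tested hypoxia genes, 5 were higher and 7 lower, with P4ha1 at 0.18 and Bnip3 at -0.15. Of 5 other perilipins and lipid droplet genes, 1 was higher and 4 lower, with Hilpda at -0.32 and Plin2 at -0.15, and both tested sulfotransferases, Sult2b1 at -0.28 and Sult4a1 at -0.18, were lower. Of 6 tested acute-phase and inflammatory genes, 1 was higher and 5 lower, with Serpina3n at -0.14. The median r with Fkbp5 was 0.04 for the metal genes, 0.40 for the hypoxia genes, 0.16 for the lipid droplet genes and 0.06 for the inflammatory genes.

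For each of the 10 genes, the 3 most alike genes were those with the highest r to it on log2 CPM centred on genotype, over 10 libraries and 13717 genes with a mean of at least 1 CPM. For Fkbp5 these were Sdc4 at 0.94, Mfsd2a at 0.92 and Rnu12 at 0.92. For Tsc22d3 they were Nfkbia at 0.96, Rasd1 at 0.92 and Pxk at 0.90, and for Sgk1 Dyrk3 at 0.97, Cwc25 at 0.96 and Nedd9 at 0.93. Sdc4, Mfsd2a and Nfkbia are on the list of other targets, and Rasd1 is known as a gene that dexamethasone raises. Plin4 was most like Cdk6 at 0.96, Farp2 at 0.95 and Heg1 at 0.92, and Hif3a most like Ppargc1a at 0.95, Rnu12 at 0.95 and Dst at 0.94.

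For Mt1 the most alike genes were Nectin1 at 0.99, Ttyh3 at 0.99 and Dscaml1 at 0.98, and for Mt2 Pim3, Shc3 and Baiap2, each at 0.98. For Zbtb16 they were Add2 at 0.97, Bcl2l13 at 0.95 and Pdxk at 0.94. Among the genes most like Sult1a1 were Mdga2 at 0.96 and Diaph2 at 0.96, and Nr3c1 was most like Mospd1 at 0.98, Pex13 at 0.97 and Zfp932 at 0.97. None of the genes named here is on the lists of targets or metal genes. These values are a description, with no test.

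Markers of the cell types of cortex were read beside these results. The summed TPM of 9 listed excitatory neuron markers was 1629 to 2357 in control and 2222 to 2480 in nKO libraries, and that of 10 astrocyte markers 2473 to 2619 and 2606 to 2768. A sum follows its most abundant genes. Slc1a2 was at 3716 ± 248 CPM in control and 4383 ± 369 in nKO libraries (SD, n = 5 each; edgeR adjusted p = 0.820). By log2 fold change, 2 of the astrocyte markers were higher and 8 lower in nKO, and 0 were called. Oligodendrocyte markers summed to 1691 to 2019 and 1790 to 2158, microglia markers to 477 to 603 and 510 to 569, and endothelial markers to 375 to 410 and 373 to 414. Inhibitory neuron markers summed to 1208 to 1463 and 1404 to 1546, oligodendrocyte precursor markers to 130 to 176 and 163 to 190, and mural and fibroblast markers to 277 to 325 and 285 to 329. No marker was at 0 in all libraries, and the neuron and glia markers of cortex were all detected. Blood cell markers, at 88.1 to 249 and 63.0 to 204, and choroid plexus and meninges markers, at 1780 to 3174 and 1930 to 2591, varied most between libraries. The groups overlapped for all 10 lists, with exact permutation p-values of their mean log2 CPM from 0.151 to 1. Of 100 relations between the 10 genes and the 10 lists, 0 passed a permutation test of r at an adjusted p under 0.05, with a smallest adjusted p of 0.0750, and 18 had an unadjusted p under 0.05. The largest of these involved Nr3c1, Zbtb16, Mt1 and Hif3a with the neuron and oligodendrocyte precursor lists, as given beside the relations of Nr3c1. Mt2 had r = 0.78 with the inhibitory neuron list. With oligodendrocyte markers, Mt1 and Mt2 each had r = 0.77 (adjusted permutation p = 0.0938 for both). Those came to 0.77 and 0.95 without the 2 libraries farthest from that list's median, and to 0.62 and 0.46 without control 1 and nKO 4.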

How the data were processed

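Per the labels' protocols, total RNA was extracted with TRIZOL, treated with DNase and made into stranded libraries after removal of ribosomal RNA. Named in the submitters' processing notes, without versions, are bcl2fastq, Salmon and DESeq2 and the build mm10. The deposited tables give estimated counts, TPM and effective lengths per gene and transcript, per the file headers; a further deposited table holds a score for other genes and was not used. Estimated counts were rounded. The filter was filterByExpr with a minimum count of 10 and a minimum total of 15. Libraries were scaled by TMM and tested with edgeR 4.0.16 (robust quasi-likelihood F test, R 4.3.3), with Benjamini-Hochberg adjustment over 14378 genes. Correlations used log2 CPM (prior count 2) and two-sided permutation tests with 100000 resamples (exact for under 10 libraries). Transcripts were tested on log2(TPM + 0.1) by exact permutation, whose smallest p is 0.00794. Tests were checked on simulated data. Named genes were the 10 genes, the 4 of smallest p of each list, and the 3 most alike genes; single cores, transcripts and libraries were named after their values were seen. Members and lists were chosen with earlier results of these data known. Alternatives used DESeq2 1.42.0, limma 3.58.1 and sva 3.50.0. Of the most alike genes, 1 is not reported here.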

Additional observations from a re-analysis of the deposited data

How the results depend on the processing

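No paired analysis was possible because the labels give no pairing of animals and a replicate number only tells libraries of a group apart. Of the 10 genes, 0 were called under each of the 20 alternatives (other scalings, tests and filters, an effective length offset, 1 surrogate variable, each library left out, and control 1 and nKO 4 left out together), and 0 transcripts under 12. A single transcript could not pass the transcript test alone, so those counts of 0 say little. The number of genes called over the whole table was 2 to 3 with each library left out and 5 by DESeq2. Called pairs numbered 9, and 1 to 11 with each library left out, 3 without control 1 and nKO 4, 6 on TPM, 12 after centring on genotype and 8 by Spearman's rho. Each run without a library has fewer samples, and r itself also moved. With each library left out, r ranged from 0.92 to 0.97 for Fkbp5 and Plin4 and from 0.74 to 0.89 for Sgk1 and Tsc22d3. It ranged from -0.91 to -0.61 for Nr3c1 and Hif3a and from -0.88 to -0.64 for Nr3c1 and Zbtb16.

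Log2 fold changes near 0 changed sign. With each library left out, Sgk1 ranged from -0.020 to 0.25, Tsc22d3 from -0.12 to 0.081, Mt1 from -0.30 to 0.13, Mt2 from -0.37 to 0.018 and Plin4 from -0.37 to 0.32. Without control 1 and nKO 4 together, Tsc22d3 came to 0.043, Mt1 to 0.20, Mt2 to 0.14 and Plin4 to 0.39. With 1 surrogate variable, Tsc22d3 came to 0.0085, Mt1 to 0.0022 and Plin4 to 0.13. With the effective length offset, Tsc22d3 came to 0.0054 and Plin4 to 0.056, and limma-voom gave 0.15 for Plin4. None of these passed the test. Nr3c1, Fkbp5, Zbtb16, Hif3a and Sult1a1 kept their sign in all 20 but not their size: with each library left out they ranged from -0.14 to -0.052, 0.014 to 0.17, 0.20 to 0.51, 0.23 to 0.70 and 0.085 to 0.23. The number of animals limits the comparison of genotypes.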
